A study of Mus musculus with 12 samples.

Results

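The genes described here are 6 Krüppel-like factors (Klf2, Klf3, Klf4, Klf6, Klf9 and Klf13) and 4 regulators linked to lymphocyte quiescence (Btg1, Btg2, Tob1 and Tsc22d3). They were chosen by gene symbol from the annotation of an Affymetrix mouse array. All 10 genes were measured, by 36 of the 45037 probe sets of the array, and each is followed below through its brightest probe set, 1 of 18193 genes so represented. RNA was measured in 12 samples, 3 arrays in each of 4 groups of B cells from female C57BL/6 mice, sorted by flow cytometry straight from the organ with no culture. Age-associated B cells (old ABC) and follicular B cells (old FO) came from the spleen of mice over 15 months old. B1 cells came from the peritoneal cavity of mice over 15 months old (old B1) and of mice aged 8 weeks (young B1), and the sample titles call them B1a. The labels name neither the surface markers used for sorting nor whether replicates were separate mice or pools, so p-values measure the spread between these samples, which may be technical. Age was compared in B1 cells, the population at both ages here. Between B1 cells and the splenic groups, cell type and organ cannot be told apart.

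Krüppel-like factors are zinc finger proteins that bind GC-rich and CACCC sequences in promoters. In resting lymphocytes Klf2 holds cells quiescent and directs their traffic through homing receptors, and Klf4 restrains B cell division. Btg1, Btg2 and Tob1 belong to one antiproliferative family whose members bring the CCR4-NOT deadenylase to messenger RNA and so shorten poly(A) tails. Tsc22d3 encodes GILZ, a leucine zipper protein induced by glucocorticoids and by FOXO factors.

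Promoter sequences are shown for 4 of the genes. Klf6 and Tob1 were higher in old B1 than in both splenic groups, and Klf9 differed in B1 level between arrays. Klf2 is the best known quiescence factor of the set. Tsc22d3 was also higher in old B1 than in both splenic groups but is not shown. It has 3 annotated starts, and CCAAT was before none of them. Each sequence shown is the 250 bases before the annotated start, from RefSeq on GRCm38.p6. It is written 5′ to 3′ on the gene's strand, and each gene shown lies on the plus strand. Capitals mark CCAAT or its complement ATTGG, except in Klf2, where they mark a match to the MEF2 consensus.

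Klf6, chr13:5861239-5861488: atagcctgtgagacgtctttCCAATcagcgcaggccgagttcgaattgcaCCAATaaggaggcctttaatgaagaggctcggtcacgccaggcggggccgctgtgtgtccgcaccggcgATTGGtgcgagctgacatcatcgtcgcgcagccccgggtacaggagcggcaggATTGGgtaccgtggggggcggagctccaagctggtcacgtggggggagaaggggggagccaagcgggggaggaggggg

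Tob1, chr11:94211204-94211453: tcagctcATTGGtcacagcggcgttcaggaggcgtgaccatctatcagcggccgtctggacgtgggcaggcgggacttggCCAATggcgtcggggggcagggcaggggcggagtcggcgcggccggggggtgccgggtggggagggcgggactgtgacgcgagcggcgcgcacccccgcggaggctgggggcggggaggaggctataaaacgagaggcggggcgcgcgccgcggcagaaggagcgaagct

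Klf9, chr19:23140976-23141225: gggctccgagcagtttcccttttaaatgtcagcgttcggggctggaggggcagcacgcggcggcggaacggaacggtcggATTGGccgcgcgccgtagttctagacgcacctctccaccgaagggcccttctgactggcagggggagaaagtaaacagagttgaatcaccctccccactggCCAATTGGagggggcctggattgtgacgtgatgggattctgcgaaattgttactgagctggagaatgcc

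Klf2, chr8:72318812-72319061: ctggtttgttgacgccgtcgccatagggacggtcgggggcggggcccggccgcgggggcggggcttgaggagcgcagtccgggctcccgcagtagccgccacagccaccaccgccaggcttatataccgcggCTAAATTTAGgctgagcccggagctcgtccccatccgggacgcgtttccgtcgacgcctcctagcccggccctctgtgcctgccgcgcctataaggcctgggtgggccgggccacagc

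CCAAT was searched on both strands and occurred 4 times before Klf6, 3 times before Klf9, where a pair of matches overlap as CCAATTGG, and 2 times before Tob1. Over the set, 6 of the 10 genes had at least 1 CCAAT, against 33.8% of 32851 mouse promoters of the same length. The Krüppel-like factor motif CACCC was before 6 of the 10 genes and before 52.0% of all promoters. A gene was counted if any of its starts had the motif, while the shares of all promoters count each promoter singly. The FOXO motif GTAAACA was before Klf9 and Btg1 (3.17% of all promoters), the cyclic AMP response element TGACGTCA before Btg2 (1.55%), and the MEF2 consensus before Klf2 alone (0.508%). The full palindromic glucocorticoid response element was before none of the 10 genes and 0.00913% of all promoters. Tsc22d3 has 3 annotated starts, and CACCC was the only one of these motifs found there, at 2 of them. A match describes letters in this window and is not a binding site.

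B cell identity was checked first. Group means of Ms4a1 (CD20) lay between 12.93 and 13.11 and those of Cd79a between 13.15 and 13.35, all on the log2 intensity scale used throughout. Of the 7 B cell markers measured, 1 was lower in old ABC than in old FO, 2 were higher in old ABC than in old B1, and 1 was higher and 3 lower in old B1 than in old FO. Pax5 was among the latter, with means of 6.34 in old FO and 5.05 in old B1, and Cd22 averaged 13.12 in old ABC and 12.37 in old B1. Itgax (CD11c) averaged 11.76 in old ABC and 5.85 in old FO, Fcer2a (CD23) averaged 12.20 in old FO, and Zbtb32 averaged 11.55 in old B1, 10.62 in old ABC and 6.55 in old FO. Of the 8 population markers measured, these among them, 5 were higher and 2 lower in old ABC than in old FO. In old ABC against old B1, 4 were higher and none lower. In old B1 against old FO, 4 were higher and 3 lower. Markers of other cells moved with the groups. The summed intensity of 9 macrophage markers was 12160 to 14140 in old ABC, 937.6 to 2166 in old FO, 9718 to 22170 in old B1 and 12110 to 18660 in young B1, and 7 of the 9 were higher in old ABC and 9 of 9 higher in old B1 than in old FO. In old ABC against old B1, 1 of the 9 was higher and 2 were lower. The macrophage marker Adgre1 (F4/80) averaged 12.34 in old ABC, 8.06 in old FO and 10.17 in old B1. Summed neutrophil markers (9 genes) reached 20720 to 35060 in old ABC against 456.7 to 9987 in old FO and 180.1 to 434.6 in old B1, with S100a8 at a mean of 12.95 in old ABC. Summed mast cell markers (7 genes) were 1957 to 4608 in old B1 and 2110 to 9758 in young B1. They were 222.7 to 845.7 in old ABC and 102.4 to 119.9 in old FO. Cma1, a mast cell chymase, had a mean of 10.05 in old B1. Summed T cell markers were 2533 to 3121 in old ABC and 986.2 to 2148 in old FO. Summed NK cell markers were 821.3 to 2076 in old ABC and 269.6 to 309.4 in old FO. The 7 mesothelial and stromal markers summed to 3960 to 5303 in old B1 and to at most 1181 elsewhere, mostly from Krt18 at a mean of 12.18, while mesothelin (Msln) averaged 3.23 to 3.52 in all 4 groups. No marker is at 0, since the lowest intensity in the data is 3.003. The part of these cells in the results below was not tested.

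**Figure D1:**
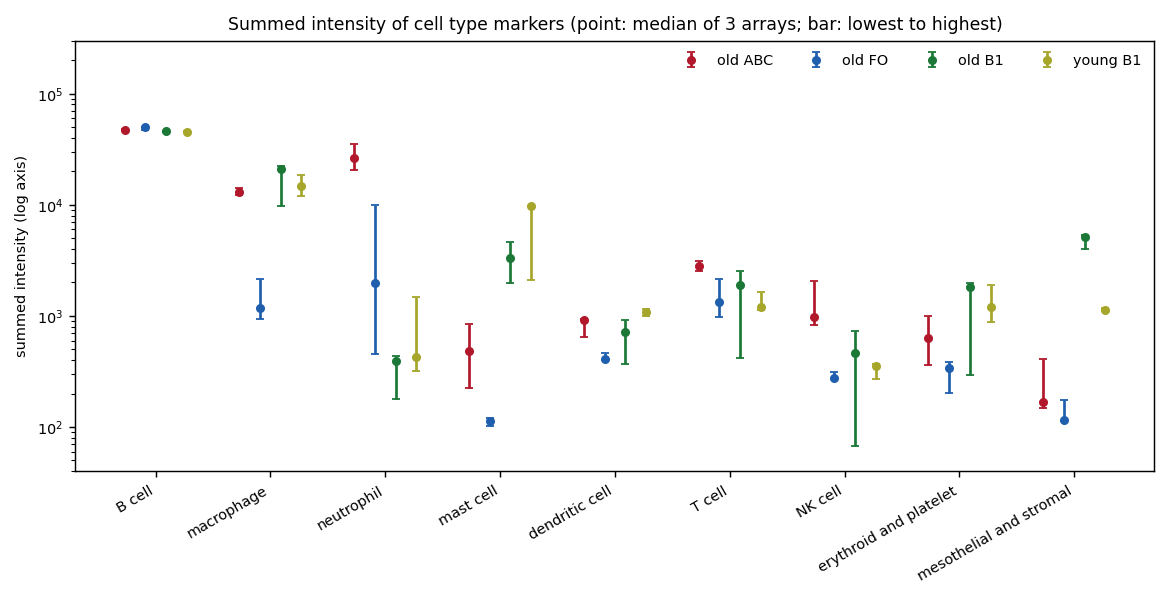
Summed linear intensity (log axis) of marker genes of 9 cell types; points are the median of 3 arrays in each group and bars run from the lowest to the highest array. The summed B cell markers lie between 44900 and 50630 in all 4 groups, and the sums of the macrophage, neutrophil and mast cell markers span wider ranges.

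Among the arrays, old B1 replicate 3 and old FO replicate 2 stood apart. Their 75th percentiles of intensity were 346 and 378, against 400.1 to 412 on the other 10 arrays. In the brightest probe sets, both lay below the other 10 arrays for Klf2 and Klf4 and above them for Btg2. In the other Klf4 probe set only old FO replicate 2 lay below the rest. In the other Btg2 probe set only old B1 replicate 3 lay above the rest. Over all genes, old B1 replicate 3 was the lowest of the 12 arrays in 28% and the highest in 19.4%. For old FO replicate 2 these shares were 8.34% and 11.7%, no more than the largest on the remaining arrays (9.85% and 13%). The results that rest on these arrays are given with and without them below.

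**Figure D2:**
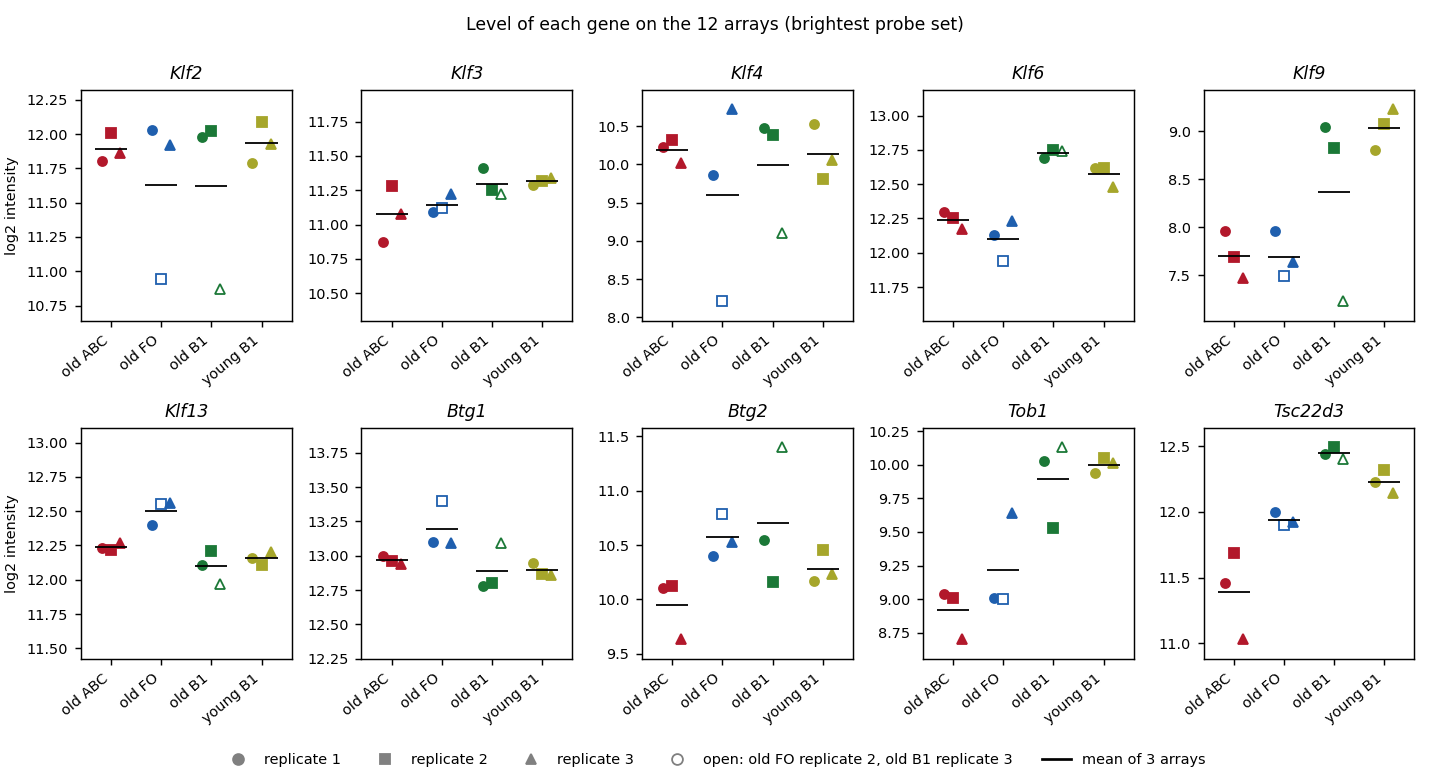
Log2 intensity of the brightest probe set of each gene on the 12 arrays (each panel has its own scale); symbols mark the replicate, open symbols are old FO replicate 2 and old B1 replicate 3, and lines are means of 3 arrays. Klf6, Tob1 and Tsc22d3 are highest in B1 cells, Klf13 is highest in old FO, and the open symbols lie apart from the rest for Klf2, Klf4 and Btg2.

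In old ABC against old FO, which sets the age-associated population beside the ordinary follicular B cells of the same organ and age, Tsc22d3 fell and none of the other 9 genes passed the test (limma, adjusted p under 0.05 over 18193 genes). Across all genes 9.96% were called (7.12% higher and 2.84% lower in old ABC), so 1 called gene of 10 is near the background. The median difference of the 10 genes was -0.15, against -0.033 for all genes. In 4 of the 10 genes (Tsc22d3, Klf13, Btg1 and Btg2) the arrays of the groups did not overlap, as for 28.8% of all genes.

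In old ABC against old B1, Klf6, Tob1 and Tsc22d3 were lower in old ABC and none of the 10 was higher, where 12.8% of all genes were called (7.4% higher, 5.43% lower). The median of the 10 genes was -0.35, against 0.016 for all genes, and 5 of the 10 did not overlap between groups (28.8% of all genes). In old B1 against old FO, Klf6, Tob1 and Tsc22d3 were higher and Klf13 lower, so 4 of 10 genes were called against a background of 16.4% (8.4% higher, 8.02% lower). The median of the 10 genes there was 0.27, against -0.038 for all genes, and 4 of 10 did not overlap (28.9% of all genes). In old B1 against young B1, none of the 10 was called by limma and none had an unadjusted p under 0.05, where 0.291% of all genes were called. Klf6 and Tsc22d3 did not overlap between the ages, being higher in all 3 old arrays, as 13.9% of all genes did not. These comparisons share arrays, so they are given side by side and not as separate evidence. In sorted bulk samples, fewer cells of a type and less RNA per cell cannot be told apart.

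**Figure D3:**
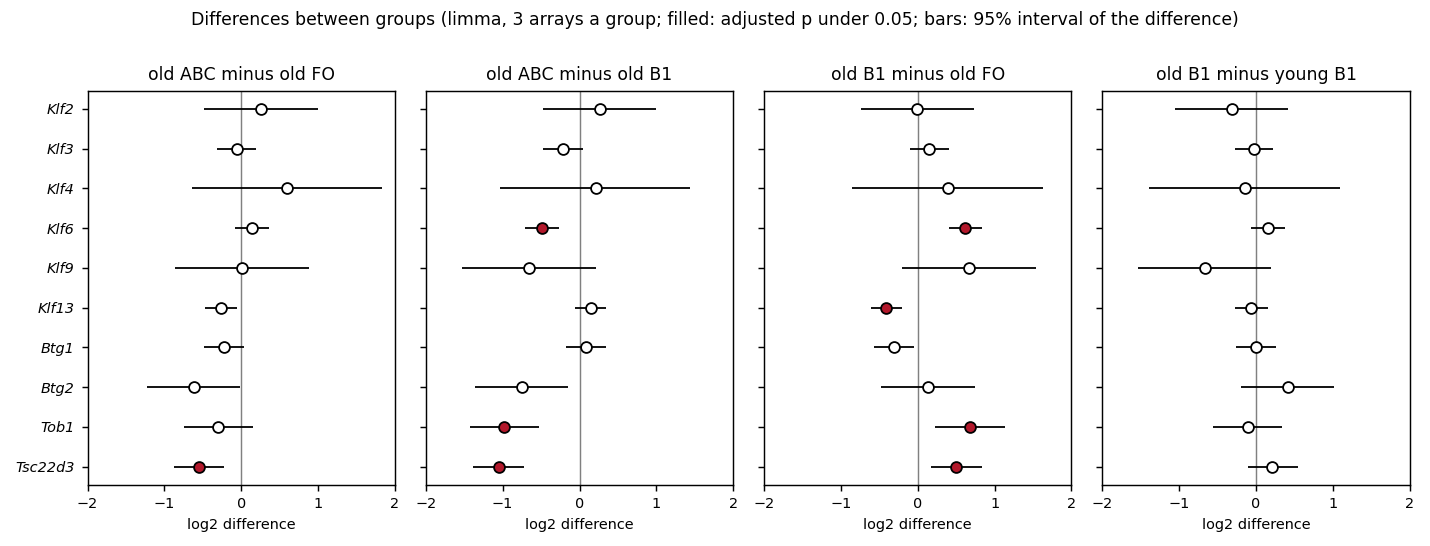
Log2 difference of each gene in the 4 comparisons with its 95% interval (limma, 3 arrays a group); filled points passed an adjusted p under 0.05. Called genes number 1, 3, 4 and 0 from left to right, and the intervals of Klf4, Klf9 and Klf2 are the widest.

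Tsc22d3 was the one gene of the set called in every comparison among the old groups. Its levels were 11.46, 11.69 and 11.03 in old ABC, 12, 11.90 and 11.92 in old FO, 12.44, 12.49 and 12.40 in old B1, and 12.23, 12.32 and 12.14 in young B1. The groups were ordered old B1, young B1, old FO and old ABC, with no overlap between any neighbours. Old ABC lay 0.55 ± 0.15 (SE) log2 units below old FO, 1.46-fold (adjusted p = 0.0399), and 1.05 ± 0.15 below old B1, 2.07-fold (adjusted p = 9.6e-04). Old B1 exceeded old FO by 0.50 ± 0.15, 1.41-fold (adjusted p = 0.0422), and exceeded young B1 by 0.21 ± 0.15, which was not called (adjusted p = 0.711). The difference between old ABC and old B1 was called under all 20 alternative settings. The call against old FO was lost on leaving out any 1 array other than old ABC replicate 2 or old B1 replicate 3 (adjusted p 0.0116 to 0.125 over 12 such fits). The old B1 against old FO call was lost on leaving out any 1 array other than old ABC replicates 2 and 3 (0.00768 to 0.114), and without both arrays that stood apart its adjusted p was 0.0904. Both calls against old FO were also lost with the mean of the Tsc22d3 probe sets, and that of old ABC with the 2-group fit.

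A further bright probe set of Tsc22d3, 1425281_a_at, had levels of 11.46, 11.86 and 11.10 in old ABC, 12, 11.87 and 12.09 in old FO, 12.18, 12.40 and 12.02 in old B1, and 11.90, 12.01 and 11.93 in young B1. It too was lowest in old ABC, 0.73 ± 0.18 below old B1 (adjusted p = 0.0306, over all probe sets), but old FO and old B1 overlapped there, with a difference of 0.22 ± 0.18 (adjusted p = 0.537). Against old FO this probe set was 0.51 ± 0.18 lower in old ABC and was not called (adjusted p = 0.154). In the dimmer probe set 1425557_x_at, old B1 and old FO both averaged 6.49 (adjusted p = 0.988). Old ABC averaged 6.20 there and was not called against old FO (adjusted p = 0.293) or old B1 (adjusted p = 0.224).

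Klf6, a widely expressed factor known as a growth suppressor and also made by myeloid cells, was higher in peritoneal than in splenic cells. It measured 12.30, 12.25 and 12.17 in old ABC, 12.13, 11.94 and 12.23 in old FO, 12.69, 12.75 and 12.74 in old B1, and 12.62, 12.62 and 12.48 in young B1. All 6 B1 arrays lay above all 6 splenic arrays. Old B1 exceeded old FO by 0.62 ± 0.10, 1.54-fold (adjusted p = 0.00153), and old ABC lay 0.49 ± 0.10 below old B1, 1.4-fold (adjusted p = 0.0084). The call of old ABC against old B1 was lost in the 2-group fit (adjusted p = 0.053). Old ABC and old FO overlapped and differed by 0.14 ± 0.10 (adjusted p = 0.525, 95% interval of the difference -0.08 to 0.36). The 3 old B1 arrays lay above the 3 young ones, but the difference of 0.15 ± 0.10 was not called (adjusted p = 0.709). Of the 5 Klf6 probe sets, 4 were called higher in old B1 than in old FO and 3 lower in old ABC than in old B1. The probe set 1418280_at gave the widest gap, with 10.05, 10.13 and 10.58 in old B1 against 9.17, 8.61 and 9.47 in old FO, a difference of 1.17 ± 0.22 (adjusted p = 0.00631). The part of the macrophage markers given above in these values was not tested.

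Tob1, which restrains cell cycle entry and cytokine transcription in lymphocytes, was likewise highest in B1 cells. It measured 9.04, 9.01 and 8.70 in old ABC, 9.01, 9 and 9.64 in old FO, 10.03, 9.53 and 10.13 in old B1, and 9.94, 10.05 and 10.01 in young B1. Every old ABC array lay below every B1 array, while old FO replicate 3 at 9.64 lay above old B1 replicate 2 at 9.53. The old ABC level was 0.98 ± 0.20 below old B1, 1.97-fold (adjusted p = 0.00928), and this call held under all 20 alternatives. Averaging in the other Tob1 probe set, which read 2.77 to 3.41 on every array, gave -0.58 in place of -0.98. Old B1 exceeded old FO by 0.68 ± 0.20, 1.6-fold (adjusted p = 0.0443), a call lost on leaving out any 1 array other than old B1 replicate 2 or old FO replicate 3 (adjusted p 0.0122 to 0.156). Without both arrays that stood apart the difference was 0.46 (adjusted p = 0.204). Old and young B1 differed by -0.11 ± 0.20 (adjusted p = 0.891).

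Klf13, a factor first known for driving chemokine transcription in T cells, was the one gene of the set called lower in old B1 than in old FO. It measured 12.23, 12.22 and 12.27 in old ABC, 12.40, 12.55 and 12.56 in old FO, 12.11, 12.21 and 11.97 in old B1, and 12.16, 12.11 and 12.20 in young B1. Old FO was above every array of the other groups. Old B1 lay 0.41 ± 0.09 below old FO, 1.33-fold (adjusted p = 0.0135), and old ABC 0.26 ± 0.09 below old FO, which was not called (adjusted p = 0.129). The old B1 against old FO call was lost without old FO replicate 3 (adjusted p = 0.0578) and in the 2-group fit (adjusted p = 0.127). The mean over all 3 Klf13 probe sets gave a larger difference of -0.79. The dimmer probe set 1432543_a_at showed the same order of group means, with 8.83, 8.18 and 8.97 in old FO and 7.61, 7.98 and 6.86 in old B1, a difference of -1.18 ± 0.27 (adjusted p = 0.0177).

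Klf9, a factor induced by glucocorticoid and thyroid hormone and known to slow B cell division, had the widest range of group means, 1.34 log2 units from old FO to young B1, and no call in the 4 comparisons. It measured 7.96, 7.69 and 7.47 in old ABC, 7.96, 7.49 and 7.64 in old FO, 9.05, 8.83 and 7.23 in old B1, and 8.81, 9.08 and 9.23 in young B1. The B1 arrays lay at 8.81 or above except old B1 replicate 3, which at 7.23 lay below every other array. With that array, old ABC minus old B1 was -0.66 ± 0.39 (adjusted p = 0.328) and old B1 minus old FO 0.67 ± 0.39 (adjusted p = 0.309). Without it and old FO replicate 2, the same differences were -1.23 (adjusted p = 0.00131) and 1.14 (adjusted p = 0.00285), and old minus young B1 went from -0.67 (adjusted p = 0.705) to -0.10 (adjusted p = 0.983). The probe set 1428289_at gave 8.15, 8.20 and 6.71 in old B1 and 8.37, 8.23 and 8.69 in young B1. Probe set 1456341_a_at gave 7.71, 7.52 and 5.70 in old B1 and 8.07, 7.77 and 7.84 in young B1. In these probe sets every old B1 array, also replicates 1 and 2, lay below every young B1 array. The ages overlapped in the brightest probe set, so its -0.10 does not stand for all Klf9 probe sets. Old B1 replicate 3 was lowest of its group in the 3 brightest Klf9 probe sets.

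**Figure D4:**
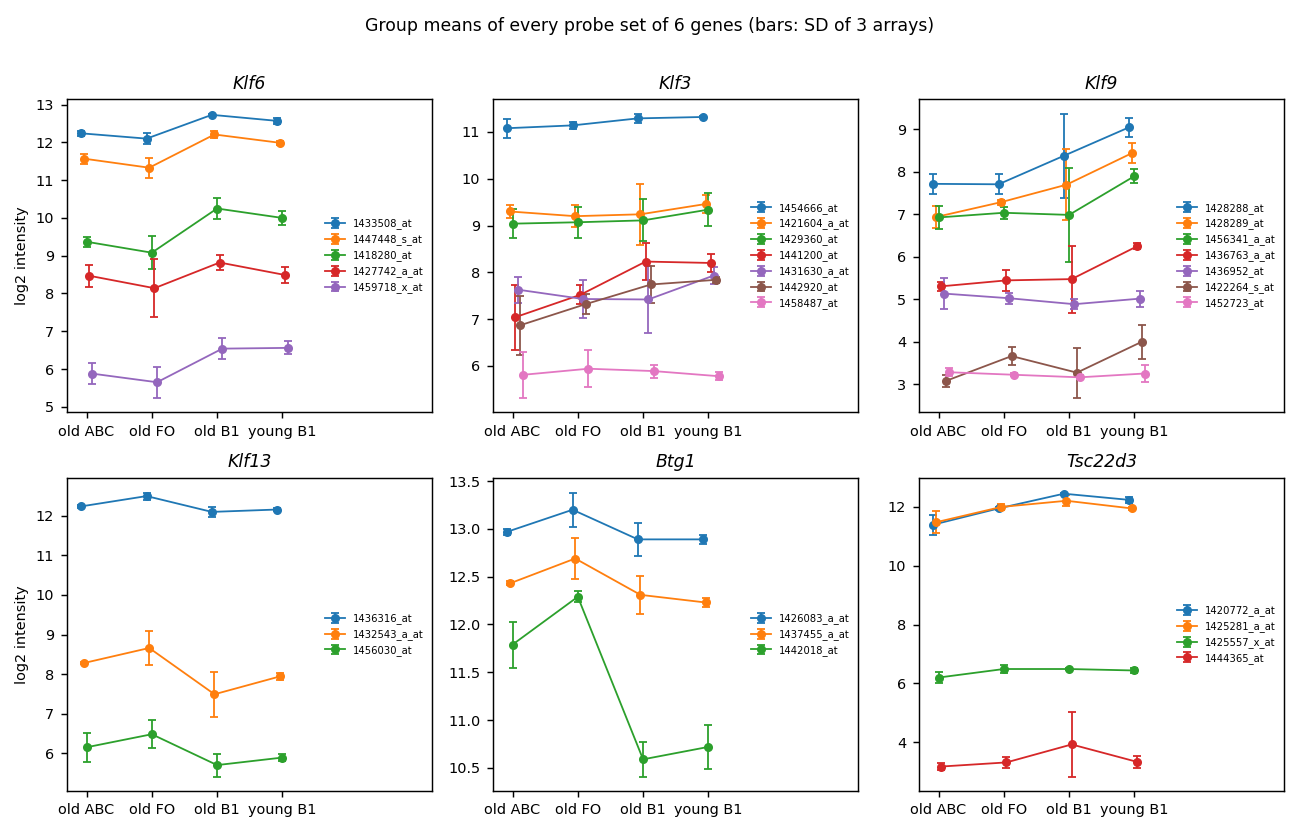
Group means of log2 intensity for every probe set of 6 of the genes (bars are the SD of 3 arrays; each panel has its own scale). Klf6 and Klf13 probe sets run in parallel, the Klf9 bars are long in old B1, and the Btg1 probe set 1442018_at drops from 12.29 in old FO to 10.59 in old B1 while the brighter Btg1 probe sets differ by 0.31 and 0.38 between these groups.

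Klf2, the factor that maintains quiescence and S1pr1-guided exit from lymphoid tissue, was at much the same level on 10 of the 12 arrays. It measured 11.80, 12.01 and 11.86 in old ABC, 12.03, 10.94 and 11.92 in old FO, 11.98, 12.02 and 10.87 in old B1, and 11.79, 12.09 and 11.93 in young B1. The low values of 10.94 and 10.87 were those of old FO replicate 2 and old B1 replicate 3, and the other 10 arrays spanned 11.79 to 12.09. Old ABC minus old FO was 0.26 ± 0.33 (adjusted p = 0.773, 95% interval -0.48 to 1) and turned to -0.08 without the pair. Old B1 minus young B1 was -0.31 ± 0.33 (adjusted p = 0.782) and turned to 0.06 without the pair.

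Klf4, which restrains B cell proliferation and is abundant in monocytes, showed the widest spread within groups. It measured 10.23, 10.32 and 10.02 in old ABC, 9.86, 8.21 and 10.72 in old FO, 10.48, 10.38 and 9.10 in old B1, and 10.53, 9.81 and 10.06 in young B1. The lowest values in this probe set were again those of old FO replicate 2 and old B1 replicate 3. Old ABC minus old FO was 0.59 ± 0.56 (adjusted p = 0.654) and -0.10 without the pair, and old B1 minus young B1 was -0.15 ± 0.56 (95% interval -1.39 to 1.09) and 0.29 without the pair. The interval spans differences as large as the 0.98 seen for Tob1. In the other Klf4 probe set, 1417394_at, old FO replicate 2 was again lowest, at 7.62. Old B1 replicate 3, at 9.45, there lay above old ABC replicate 3 (8.74) and young B1 replicates 2 and 3 (9.14 and 9.31). Old ABC minus old B1 was 0.21 in the brightest probe set and -0.45 in 1417394_at, neither called.

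Klf3, a repressor that acts downstream of other Krüppel-like factors and shapes marginal zone B cell numbers, had the narrowest range of group means, 0.24. It measured 10.87, 11.28 and 11.08 in old ABC, 11.09, 11.12 and 11.22 in old FO, 11.41, 11.25 and 11.22 in old B1, and 11.29, 11.32 and 11.34 in young B1. All 4 differences were within 0.22 and none was called. Of its 7 probe sets, 1441200_at was called lower in old ABC than in old B1, with 6.49, 6.82 and 7.82 against 8.04, 8.68 and 7.98 (-1.19 ± 0.31, adjusted p = 0.0417), and the other 6 were not called.

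Btg1, an abundant antiproliferative gene of resting lymphocytes, measured 13.00, 12.96 and 12.94 in old ABC, 13.10, 13.40 and 13.09 in old FO, 12.78, 12.80 and 13.09 in old B1, and 12.95, 12.87 and 12.86 in young B1. Old FO was highest, above every array of old ABC, but neither the difference from old ABC (-0.23 ± 0.12, adjusted p = 0.324) nor that of old B1 from old FO (-0.31 ± 0.12, adjusted p = 0.109) was called. Without the pair of arrays that stood apart, old B1 minus old FO was -0.30 and was called (adjusted p = 0.0374). The probe set 1442018_at showed a far larger contrast, with 11.70, 11.61 and 12.06 in old ABC, 12.35, 12.24 and 12.30 in old FO, 10.50, 10.48 and 10.80 in old B1, and 10.98, 10.62 and 10.56 in young B1. There the B1 arrays lay below all splenic arrays, old B1 1.70 ± 0.16 below old FO, 3.26-fold (adjusted p = 7.0e-05), and old ABC 1.20 ± 0.16 above old B1 (adjusted p = 0.00102). The annotation used here does not say which stretch of the Btg1 transcript each probe set reads, so the disagreement is given as measured.

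Btg2, a p53 target and early response gene of the same family, measured 10.10, 10.12 and 9.63 in old ABC, 10.40, 10.79 and 10.53 in old FO, 10.55, 10.16 and 11.40 in old B1, and 10.17, 10.45 and 10.23 in young B1. Old ABC was lowest in this probe set, with no overlap with old FO or old B1. The differences of -0.62 ± 0.27 from old FO (1.54-fold, adjusted p = 0.23) and -0.75 ± 0.27 from old B1 (adjusted p = 0.108) were not called. Old B1 replicate 3, at 11.40, was the highest array and old FO replicate 2, at 10.79, the next. Without old B1 replicate 3 the difference from old FO was called (adjusted p = 0.0313), and without old B1 replicate 2 the difference from old B1 was called (adjusted p = 0.0291). Without old B1 replicate 3 the difference from old B1 was -0.41 (adjusted p = 0.217). In the other Btg2 probe set, 1416250_at, old ABC overlapped both groups. There old ABC replicate 2, at 10.09, lay above old FO replicates 2 and 3 and old B1 replicates 1 and 2. Its differences were -0.38 ± 0.31 from old FO (adjusted p = 0.662) and -0.61 ± 0.31 from old B1 (adjusted p = 0.298).

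Over the 36 probe sets fitted singly, limma called none in old ABC against old FO (6 had an unadjusted p under 0.05, and 6.13% of all probe sets were called, 4.31% higher and 1.83% lower). Old ABC against old B1 gave 1 higher and 7 lower, where 8.48% of all probe sets were called (4.93% higher, 3.55% lower), and old B1 against old FO 4 higher and 3 lower, where 11.5% were called (5.47% higher, 6.01% lower). Old against young B1 gave none, with 2 at an unadjusted p under 0.05 and 0.151% of all probe sets called. Both were Klf9 probe sets lower in old B1, with old B1 means of 5.47 (1436763_a_at) and 3.27 (1422264_s_at). Their differences were -0.77 ± 0.31 (adjusted p = 0.746) and -0.73 ± 0.28 (adjusted p = 0.737). Old B1 replicate 3 was lowest in both, at 4.56 and 2.59, where old B1 replicates 1 and 2 read 5.96 and 5.90, and 3.65 and 3.57. The probe set 1422264_s_at is dim, with intensities of 6.022 to 21.85, where the lowest in the data is 3.003.

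The genes with the most similar course over the 12 arrays were taken for the 4 genes of widest range, by the root mean square difference of mean-centred log2 values. Nearest to Tsc22d3 were Gm15706 (0.129), Ints10 (0.16) and Dram2 (0.182), where the median over all genes was 0.493. Nearest to Tob1 were Cd320 (0.21), Glipr2 (0.211) and Srm (0.232), nearest to Klf9 were Unc13b (0.197), Sh2b2 (0.211) and Gramd1c (0.25), and nearest to Btg2 were Cdc37 (0.175), Palm2 (0.176) and Ebf2 (0.178). These distances describe 12 arrays that share groups and carry no test.

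Other Krüppel-like and Sp factors were measured for 13 of 15 listed genes: 2 were higher and none lower in old ABC against old FO (median -0.10), 2 higher and 2 lower in old ABC against old B1, and 2 higher and 1 lower in old B1 against old FO. Klf10, a TGF-beta induced factor, ranged 11.39 to 11.81 in old ABC and 9.71 to 10.27 in old FO, 1.55 ± 0.16 higher in old ABC (adjusted p = 1.4e-04), and it was 1.07 ± 0.16 higher in old B1 than in old FO (adjusted p = 0.00105). Klf11, its close relative, was 1.18 ± 0.24 lower in old ABC than in old B1 (adjusted p = 0.00897) and 1.45 ± 0.24 higher in old B1 than in old FO (adjusted p = 0.00217). Klf10 was thus high in old ABC and B1 cells and Klf11 in B1 cells. Klf5 and Klf1 were also called, at dim levels: Klf5 averaged 5.58 in old ABC and 4.22 in old FO (a difference of 1.37, or 0.43 over the mean of its probe sets), and Klf1 4.89 in old ABC and 3.62 in old B1. Klf12 averaged 6.07 in old ABC and 7.45 in old B1, a call (adjusted p = 0.038) lost in 8 of 12 fits with 1 array left out.

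Among 14 measured of 17 relatives of Btg and Tob and deadenylase subunits, limma called none in any of the 4 comparisons. Unadjusted p was under 0.05 for 3, 4, 1 and 0 of them in old ABC against old FO, old ABC against old B1, old B1 against old FO and old against young B1. Without the 2 arrays that stood apart, 1 was called higher and 1 lower in the first of these, and 1 lower in the next. Of 10 genes of the TSC22 family and the glucocorticoid response, none was higher and 1 lower in old ABC than in old FO, 1 was higher in old ABC than in old B1, and 2 were lower in old B1 than in old FO. The gene lower in old ABC was Ddit4 (REDD1, an mTORC1 inhibitor), at -0.79 ± 0.16 (adjusted p = 0.0107). Sgk1, a kinase induced by glucocorticoids, averaged 9.35 in old B1 and 11.40 in old FO, -2.05 ± 0.44 (adjusted p = 0.0095). Tsc22d1 averaged 7.76 in old B1 and 9.99 in old FO (adjusted p = 0.0434), a difference of -2.23 that was -1.26 without old B1 replicate 3, and its call was lost in 8 of 12 fits with 1 array left out. In old B1 against old FO, Sgk1 and Tsc22d1 were thus lower where Tsc22d3 was higher. The old B1 arrays of Sgk1 ranged from 8.12 to 10.12. In old ABC, where Tsc22d3 was lowest, Sgk1 averaged 10.92 and Tsc22d1 9.52, both also below old FO and not called. Without the 2 arrays that stood apart, this list had 1 higher and 4 lower in old ABC against old FO, 2 higher in old ABC against old B1, and 1 higher and 5 lower in old B1 against old FO.

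Of 18 FOXO and lymphocyte quiescence genes, 4 fell and none rose in old ABC against old FO (median -0.23), 2 were higher and 4 lower in old ABC than in old B1, and 2 higher and 6 lower in old B1 than in old FO. Pik3ip1, an inhibitor of PI3-kinase, was 1.77 ± 0.32 lower in old ABC than in old FO (adjusted p = 0.00546) and 2.45 ± 0.32 lower than in old B1 (adjusted p = 6.5e-04). Like Tsc22d3 it was lowest in old ABC and highest in B1 cells, with means of 8.71 in old ABC, 10.48 in old FO, 11.16 in old B1 and 11.55 in young B1. Sesn1, a stress-induced mTORC1 inhibitor, was 1.25 ± 0.16 lower in old ABC than in old FO (adjusted p = 6.7e-04) and 1.27 ± 0.16 lower in old B1 than in old FO (adjusted p = 4.2e-04). Mxi1, a MYC antagonist, was 1.04 ± 0.13 higher in old B1 than in old FO (adjusted p = 3.8e-04) and 1 ± 0.13 lower in old ABC than in old B1 (adjusted p = 6.4e-04), as Tob1 and Klf6 were. The old B1 minus old FO difference of Mxi1 went down to 0.63 over the alternatives and kept its call. Bach2, a repressor that keeps B cells from becoming plasma cells, averaged 11.97 in old FO and 10.29 in old B1, -1.68 ± 0.27 (adjusted p = 0.00159). Slfn2, a lymphocyte quiescence gene, was -0.71 ± 0.11 in old B1 against old FO (adjusted p = 0.00136).

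Of 4 homing genes tied to Klf2, 1 was lower in old ABC than in old FO and 1 higher in old B1 than in old FO. S1pr1, the sphingosine phosphate receptor that Klf2 induces, was level like Klf2, with group means of 9.34, 9.34, 9.41 and 9.47 in old ABC, old FO, old B1 and young B1. S1pr4 was not called in any comparison. Itgb7, an integrin that Klf2 holds up in B cells, was 0.78 ± 0.14 higher in old B1 than in old FO (adjusted p = 0.00386), and Cd69, which keeps S1pr1 off the surface, was -0.88 ± 0.17 in old ABC against old FO (adjusted p = 0.0078).

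Proliferation genes were measured for 13 of 14, and limma called none in any comparison, with 1, 0, 0 and 0 at an unadjusted p under 0.05. Without the 2 arrays that stood apart, 7 were called higher and 1 lower in old ABC than in old FO, and 3 higher in old ABC than in old B1. Among 7 growth-drive genes, 1 rose and 1 fell in old ABC against old FO, 1 was higher and 3 lower in old ABC than in old B1, and 3 were higher and 1 lower in old B1 than in old FO. Myc was 1.5 ± 0.31 lower in old ABC than in old FO (adjusted p = 0.011) and 1.99 ± 0.31 lower than in old B1 (adjusted p = 0.00185). Ccnd2 (cyclin D2) was 1.45 ± 0.21 higher in old B1 than in old FO (adjusted p = 8.9e-04). So Myc was lowest in old ABC, where Tsc22d3 was lowest too. Of 14 immediate early and dissociation genes, 2 rose and none fell in old ABC against old FO, 1 was higher and 1 lower in old ABC than in old B1, and 2 rose and 2 fell in old B1 against old FO. The stress gene Atf3 averaged 4.48 in old FO, 6.51 in old ABC and 10.50 in old B1 (old B1 minus old FO 6.02 ± 0.39, adjusted p = 3.7e-06). The part of handling and organ in the values of Klf6, Klf4 and Btg2 was not tested. Across ages in B1 cells, limma called none of the genes in these lists. Unadjusted p was under 0.05 for 5 of the 18 FOXO and quiescence genes, for 1 gene each of the Krüppel-like and Sp, TSC22 and growth-drive lists, and for none of the rest. Without the 2 arrays that stood apart, 1 FOXO and quiescence gene and 1 growth-drive gene were called lower in old B1.

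**Figure D5:**
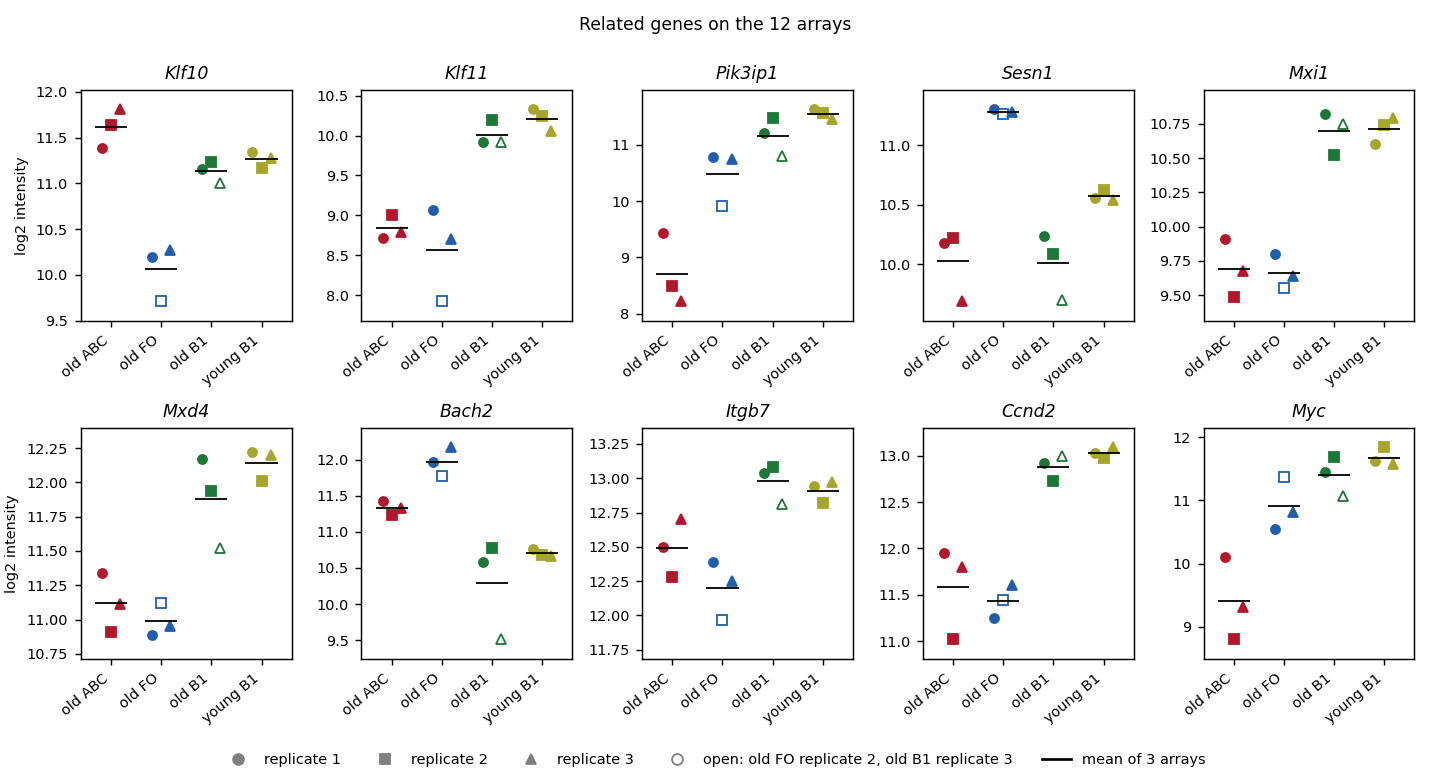
Log2 intensity of 10 related genes on the 12 arrays (each panel has its own scale; symbols mark the replicate, open symbols are old FO replicate 2 and old B1 replicate 3, lines are means of 3 arrays). Pik3ip1 and Myc are lowest in old ABC, Klf11, Mxi1 and Ccnd2 are highest in B1 cells, and Sesn1 and Bach2 are highest in old FO.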

How the data were processed

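Each sample was hybridised to 1 Affymetrix mouse array as biotin-labelled cRNA from total RNA, per the labels' protocols. The deposited values are linear intensity per probe set, with a median of 5.54 after log2; the submitters' processing notes name RMA and affy, with no versions, order or background details. GEO's platform annotation, which can be old, gave 34945 of 45037 probe sets 1 gene symbol, 932 several and 9160 none; genes were named from the first kind only, and each of 18193 genes was represented by its probe set of highest mean. The members and gene lists were chosen with earlier results of these data known.

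Log2 of the deposited intensity was fitted with limma 3.58.1 (R 4.3.3): 4 group means on 12 arrays with 8 residual degrees of freedom, moderated variances, Benjamini-Hochberg adjustment over all genes, and calls at an adjusted p under 0.05. In each list, up to 4 called genes of lowest adjusted p were eligible for naming, all members and homing genes always. RMA, where used, compresses the differences of dim genes, and folds are of fitted log2 values. The number of arrays limits the precision. In simulated data made from old ABC against old FO with 18193 genes, the fit called 8, 34, 45 and 48 of 50 genes changed by 0.5, 1, 2 and 3 log2 units, with 3 false calls. Alternatives were a replicate block, array weights, 2-group fits, mean of probe sets, cyclic loess, centring on the 75th percentile, a filter on dim genes, a threshold of 0.01, and leaving out arrays; those for list genes and list counts were added after the data were seen. Promoters came from RefSeq (GRCm38.p6); all 10 members matched. Figures were drawn with matplotlib 3.10.9.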

Additional observations from a re-analysis of the deposited data

How the results depend on the processing

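Of 40 member differences, 8 were called. Under 20 alternatives each, 3 calls held throughout (Tob1 and Tsc22d3 in old ABC against old B1, Klf6 in old B1 against old FO), 5 were lost under at least 1, and 8 uncalled differences were called under at least 1. No called difference changed sign; 47 of 640 values of uncalled differences did, so their signs are not read as directions. Members called in old ABC against old FO were 3 with array weights and 0 with 2-group fits, the mean of probe sets or a threshold of 0.01, and 0 to 2 with 1 array left out, against 1. In old ABC against old B1 they were 5 with array weights and 3 to 4 with 1 array left out, against 3. In old B1 against old FO they were 2 with 2-group fits, 1 at 0.01 and 2 to 4 with 1 array left out, against 4.

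The replicate block gave 1, 3, 3 and 0 called members; Tob1 in old B1 against old FO lost its call (adjusted p = 0.068). The numbers were not taken as pairing: same-numbered samples of 2 groups had deviations correlated at -0.391 to 0.228, over 0.1 in 3 of 18 pairs.

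All genes called in the 4 comparisons (main 1812, 2334, 2988 and 53) were 3961, 3592, 5001 and 316 with array weights and 990, 1281, 1706 and 15 at 0.01. The block gave 32 for the ages. Fits of 2 groups gave 1062 in old ABC against old B1, 1455 in old B1 against old FO and 2 for the ages. Without both arrays that stood apart there were 2964 in old ABC against old FO and 208 for the ages. Leaving out 1 array moved the count by over 1.5 times in old ABC against old FO (2837 without old B1 replicate 3) and for the ages (165 without old B1 replicate 3, and 17 to 20 without 1 young B1 array). The cause of these shifts was not tested. Across scalings the median of all genes stayed within 0.07 of 0.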
